A study of Mus musculus with 4 samples.

Results

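Collecting duct principal cells were selected from single-cell RNA sequencing libraries of aged mouse kidney by the raw transcript counts of single barcodes. A barcode entered the set with at least 3 unique molecular identifiers (UMIs, each standing for 1 captured transcript) of Aqp2 and at least 2 in all of Aqp3, Hsd11b2, Scnn1b and Scnn1g. It could hold at most 2 UMIs of Slc12a3, 1 of Atp6v1g3 and 3 of Lrp2 and Slc34a1 together, and none of Ptprc, which encodes CD45. The set comprised 163 cells of 50605 barcodes that had at least 500 UMIs, at least 300 genes and at most 50% mitochondrial UMIs. This is 0.561% of the 29038 barcodes without a Ptprc UMI. The animals were male C57BL/6 mice, 19 months old. One group had received BPTES for 1 month and the other the vehicle DMSO, with 2 libraries in each. BPTES is a small molecule that inhibits the breakdown of glutamine. Both groups share sex, strain and age. Each library mixed 20000 sorted CD45-negative with 9000 CD45-positive cells, and nothing in the labels says whether the libraries of a group came from separate animals, so the p-values below measure the spread between libraries, which may be technical.

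Principal cells line the connecting tubule and collecting duct together with intercalated cells. Vasopressin acting on its receptor Avpr2 raises cyclic AMP and moves the water channel Aqp2 to the apical membrane, while Aqp3 lets water leave on the basal side. Aldosterone, protected from competition with glucocorticoids by the enzyme Hsd11b2, raises sodium uptake through the epithelial sodium channel, whose subunits are Scnn1a, Scnn1b and Scnn1g, and potassium secretion through Kcnj1.

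The libraries held 249881074 to 297947661 UMIs. The BPTES libraries gave 42 and 37 principal cells with 998212 and 731267 UMIs, and the DMSO libraries gave 24 and 60 cells with 531182 and 1308769 UMIs. Median depth was 24433.5 and 19626 UMIs per cell under BPTES and 20716.5 and 22827 under DMSO. Of the 163 cells, 6 were scored as doublets and kept, 1 in BPTES replicate 1 and 5 in DMSO replicate 2. Pairs of libraries shared 36 to 54 barcode sequences, and no sequence was a principal cell in both libraries of a pair. The 5 deepest cells supplied 20.3% to 38.4% of a library's principal cell UMIs.

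The values that chose the cells are given as a description only. Aqp2 ranged from 3 UMIs in a cell to 904, with library medians of 36 and 21 under BPTES and 24 and 52 under DMSO. Summed over cells, Aqp2 stood at 2374 and 4495 per 1000000 UMIs under BPTES and 3191 and 6527 under DMSO, so the groups overlapped. Hsd11b2 stood at 3554 and 3622 per 1000000 under BPTES and 3114 and 4005 under DMSO. A single cell supplied 33.2% of the Aqp2 UMIs of DMSO replicate 1 and 9.99% of those of DMSO replicate 2. At the edge of the rule, 9 cells had exactly 3 Aqp2 UMIs, and 9 barcodes that met the other limits had 2. Of 344 barcodes that met both positive conditions, 92 had a Ptprc UMI, 78 exceeded the limit on Lrp2 and Slc34a1 and 49 that on Atp6v1g3. Among proximal tubule cells, which do not make Aqp2, 0.839% to 1.58% carried at least 1 Aqp2 UMI and 0.12% to 0.168% at least 3, at library median depths of 16143 to 20159.5 UMIs.

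Of 10 principal cell markers outside the selection rule, most but not all set these cells apart. To compare classes at equal depth, each cell was thinned to 2000 UMIs, which left out 14 shallower principal cells. After thinning, Fxyd4, a regulator of the sodium pump, was seen in 65.1% of principal cells. Tmem45b was seen in 55.0%, Apela, which encodes a peptide ligand of the apelin receptor, in 49.0%, and Avpr2 and Gata3 in 30.2% each. Without thinning the shares of these 5 genes were 87.1%, 85.9%, 87.1%, 67.5% and 81.0%. In intercalated cells, selected likewise by their own markers (190 cells), the thinned share was 3.53% for Fxyd4, 1.18% for Tmem45b and 0% for Avpr2, and 22.4% for Gata3. Apela was seen in 12.8% of thinned thick ascending limb cells. Scnn1a did not separate the classes, with 35.6% of principal, 32.9% of intercalated and 30.3% of distal convoluted tubule cells. Kcne1 was seen in 25.5% of principal cells, Stc1 in 15.4%, Aqp4 in 12.8% and Elf5 in 4.03%, against at most 0.588% of intercalated cells. Of 11 intercalated cell markers, Foxi1, Atp6v0d2, Kit, Aqp6, Insrr and Hmx2 were at 0% of thinned principal cells and Atp6v1c2, Slc4a1, Slc26a4 and Slc4a9 at 0.671%, while the ammonium transporter Rhbg was seen in 33.6%. Of 7 thick ascending limb markers, Cldn16 and Ptger3 were at 0% and the others at 0.671% to 4.03%, the highest being Umod. Among the distal convoluted tubule and connecting tubule markers Pvalb was at 0%, Trpm6 at 6.04%, Klhl3 at 8.05%, Emx1 at 21.5%, Klk1 at 34.9% and Tmem52b at 56.4%.

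**Figure D1:**
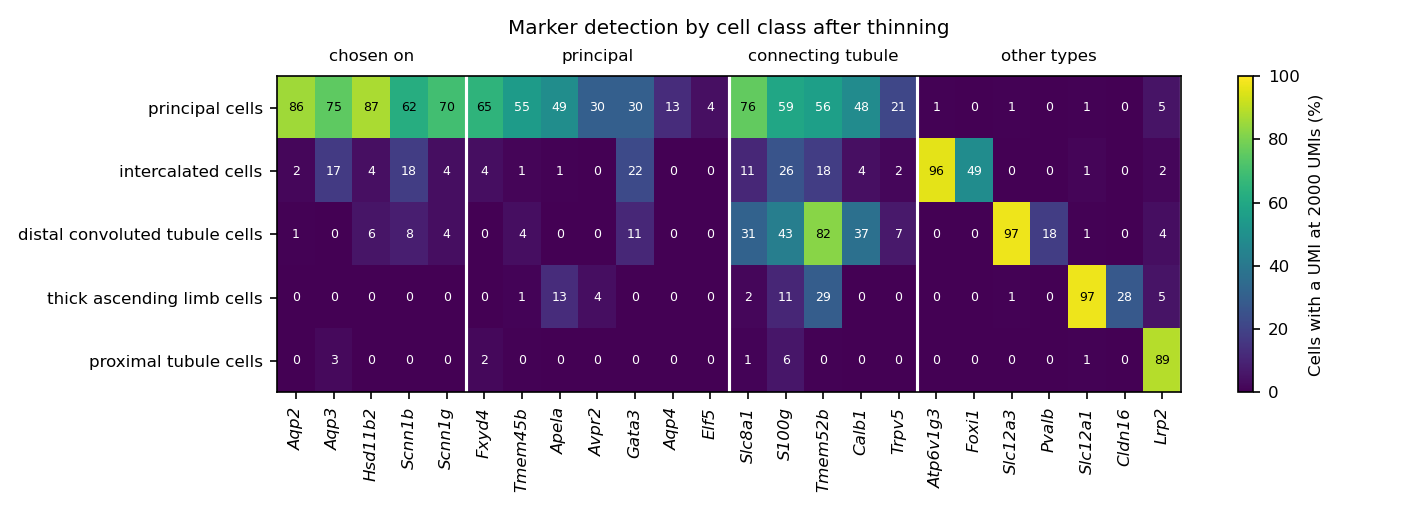
Share of cells with at least 1 UMI of each gene (colour and printed value, %) after thinning to 2000 UMIs, for principal cells and 4 other epithelial classes; the first 5 genes chose the principal cells. Connecting tubule genes such as Slc8a1 (75.8%) and Calb1 (48.3%) were widespread in principal cells, and Foxi1, Pvalb and Cldn16 were at 0%.

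Markers of the connecting tubule, the segment just before the collecting duct, were common in the set. The sodium-calcium exchanger Slc8a1 was seen in 75.8% of thinned cells, the calcium-binding proteins S100g in 59.1% and Calb1 in 48.3%, and the calcium channel Trpv5 in 21.5%. At least 3 Calb1 UMIs were found in 28 of 42 and 24 of 37 cells under BPTES and in 18 of 24 and 32 of 60 under DMSO. That share averaged 65.8% ± 1.27 (SD, n = 2) under BPTES and 64.2% ± 15.3 (SD, n = 2) under DMSO. The exact two-sided permutation p was 1, where 2 libraries against 2 cannot go below 0.333. The set therefore holds connecting tubule cells with Aqp2 as well as collecting duct principal cells, and the word principal cell below covers both. Aqp4, a basal water channel on the list of inner medullary markers, was seen in 10% and 0% of thinned cells under BPTES and in 21.7% and 18.5% under DMSO. Slc14a2, a urea transporter, had a UMI in 0 of the 163 cells, which allows a share of cells with a UMI of up to 1.84%.

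Single principal cells varied widely in Aqp2, a gene that chose them, and in connecting tubule genes. Aqp2 per 10000 UMIs ranged from 0.622 to 376 with a median of 21.6. Across the 149 cells with at least 2000 UMIs, Aqp2 and the sum of Calb1, Slc8a1, S100g and Trpv5 had a Spearman rho of -0.49, given as a description because the cells share libraries and the values share each cell's total. It was not computed within libraries. With Calb1 alone rho was -0.14, and within libraries that value was -0.12 and 0.34 under BPTES and -0.16 and -0.16 under DMSO.

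**Figure D2:**
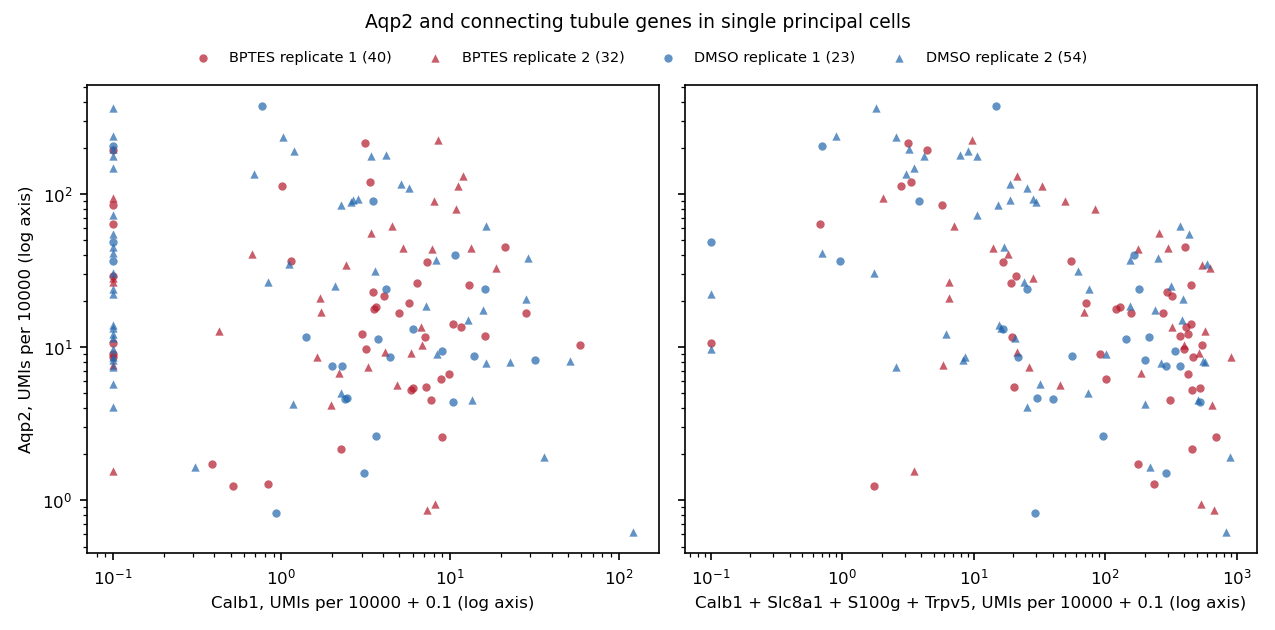
Aqp2 UMIs per 10000 UMIs of a cell (vertical, log axis) against Calb1 alone (left) or the sum of Calb1, Slc8a1, S100g and Trpv5 (right; both per 10000 plus 0.1, log axes) for the 149 principal cells with at least 2000 UMIs. Cells with high Aqp2 lie mostly at low sums on the right, and Aqp2 runs from 0.622 to 376 UMIs per 10000.

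Principal cells made up 0.551% (95% exact Clopper-Pearson interval 0.397% to 0.744%) and 0.558% (0.393% to 0.768%) of CD45-negative barcodes under BPTES. They made up 0.328% (0.21% to 0.488%) and 0.804% (0.614% to 1.03%) under DMSO. The intervals cover counting error only. Both BPTES libraries lay between the 2 DMSO libraries, whose own intervals did not overlap. Means were 0.554% ± 0.00499 and 0.566% ± 0.336 (SD, n = 2 each), and the exact two-sided permutation p was 1. No difference in the share was detectable with 2 libraries per group, and the mean difference of -0.0118 percentage points changed to 0.226 without DMSO replicate 2 and to -0.25 without DMSO replicate 1.

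Which transcripts of principal cells differ between BPTES and DMSO was tested on the UMI sums per library. Of 8790 genes with enough counts, 24 passed an adjusted p of 0.05 (0.273%) in edgeR's quasi-likelihood test with Benjamini-Hochberg adjustment, 5 higher (0.0569%) and 19 lower (0.216%) under BPTES. The genes that fell included the injury marker Lcn2, the keratins Krt8 and Krt18, and the mucin Muc1, and the genes that rose included the immunoglobulin transcripts Igha and Igkc. Levels in CPM below are counts per 1000000 over the tested genes of a library's cell sum, scaled by edgeR's TMM factors. They compare a gene between libraries and not genes with one another. Levels given per 1000000 UMIs use all UMIs of the principal cells instead. Fold changes are BPTES against DMSO on the log2 scale. In sums over cells, more transcript per cell and more cells that carry it cannot be told apart. The median log2 fold change over all tested genes was -0.0023, and 637 genes (7.25%) had an unadjusted p under 0.05. Leaving out BPTES replicate 1 gave 177 genes, 111 higher and 66 lower, so that most calls were then rises. Leaving out BPTES replicate 2 gave 54, 16 higher and 38 lower. Leaving out DMSO replicate 1 gave 9, 4 higher and 5 lower, and leaving out DMSO replicate 2 gave 13, 4 higher and 9 lower. With only the 120 cells of at least 10 Aqp2 UMIs, an alternative chosen after seeing the data, 11 genes passed, 8 of them among the 24.

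**Figure D3:**
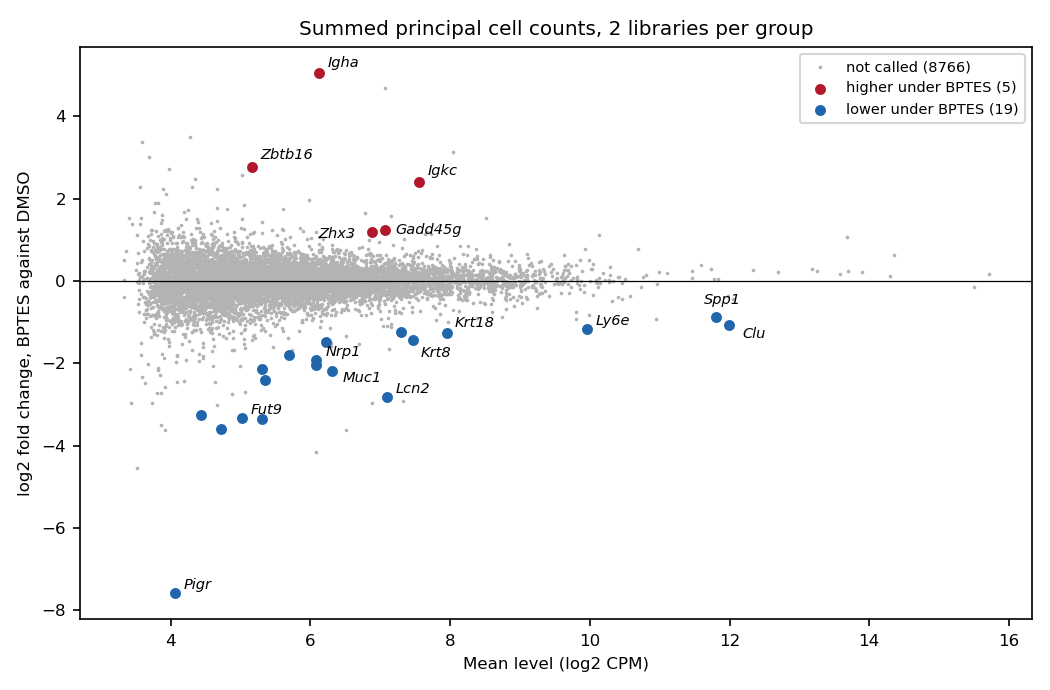
Log2 fold change of each of 8790 genes in principal cells, BPTES against DMSO (vertical), against its mean log2 CPM (horizontal); red and blue points are the 5 higher and 19 lower genes past an adjusted p of 0.05, grey points the others. Lcn2, Krt8, Krt18, Clu and Spp1 lie below 0, Igha and Igkc above, and the fitted value of Pigr, which had no UMI under BPTES, depends on a prior count.

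Lcn2 encodes neutrophil gelatinase-associated lipocalin, a secreted iron-siderophore binding protein that tubules make after injury. It stood at 35.7 and 30.4 CPM under BPTES and at 260 and 218 CPM under DMSO. Every DMSO library was thus far above every BPTES library. The top cell held 28.6% and 47.6% of the Lcn2 UMIs of the BPTES libraries and 43.8% and 9.19% of those of the DMSO libraries. The log2 fold change was -2.82 (SE 0.23, adjusted p = 5.1e-05, edgeR). The difference was also seen in the number of cells, with an Lcn2 UMI in 10 of 42 and 7 of 37 cells under BPTES and in 11 of 24 and 35 of 60 under DMSO. At a depth of 2000 UMIs the shares were 2.5% and 9.38% under BPTES and 26.1% and 25.9% under DMSO, against 0% to 0.1% in proximal tubule cells. Over all libraries Lcn2 was in 16.1% of thinned principal cells and 12.1% of thick ascending limb cells. It was in 6.93% of distal convoluted tubule and 0% of intercalated cells. Lcn2 passed without any 1 library (log2 -2.96 to -2.70) and in the cells with at least 10 Aqp2 UMIs (-2.97), and missed the threshold in the cells with fewer than 3 Calb1 UMIs (-3.52, adjusted p = 0.229).

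**Figure D4:**
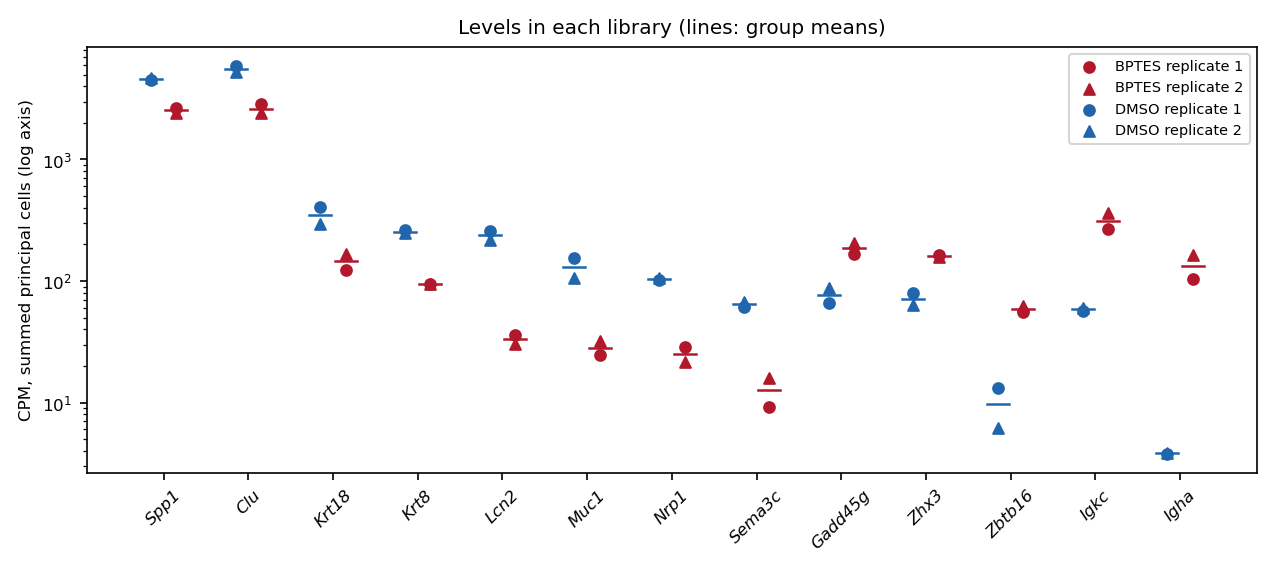
CPM (log axis) of 13 genes in the principal cell sum of each library; circles are replicate 1, triangles replicate 2, short lines the group means, blue DMSO and red BPTES. Levels run from Clu at 2419 to 5840 CPM to Igha at 3.79 to 162 CPM. For each gene shown the groups do not overlap, as for 37.1% of all tested genes.

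Krt8 and Krt18 encode the keratin pair of simple epithelia, and their genes lie near each other on chromosome 15 of the GRCm38 build (positions 101996698 to 102004482 and 102028180 to 102032027). Krt8 stood at 93.9 and 94.2 CPM under BPTES and 261 and 249 CPM under DMSO (log2 -1.44, SE 0.20, adjusted p = 0.0055, edgeR). Krt18 stood at 124 and 167 CPM under BPTES and 405 and 294 CPM under DMSO (log2 -1.26, SE 0.22, adjusted p = 0.033, edgeR). The groups did not overlap for either gene, as for 37.1% of all tested genes. The keratin counts of the DMSO libraries sat in few cells. One cell of DMSO replicate 1, with 3 Aqp2 UMIs, held 63.8% of that library's Krt8 UMIs, 71.5% of its Krt18 UMIs, 43.7% of its Clu UMIs and all 32 of its Ltc4s UMIs. One cell of DMSO replicate 2, with 8 Aqp2 UMIs, held 47.8% of the Krt8 and 23.3% of the Krt18 UMIs. In the cells with at least 10 Aqp2 UMIs the log2 fold change was -0.44 for Krt8 (adjusted p = 0.8) and -0.46 for Krt18 (adjusted p = 0.906). Without DMSO replicate 1 the values were -1.41 (adjusted p = 0.0506) and -1.03 (0.252), and without DMSO replicate 2 they were -1.47 (0.0534) and -1.49 (0.0652).

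Clu, a secreted chaperone, and Spp1, the matrix and urinary protein osteopontin, fell too. Clu stood at 2838 and 2419 CPM under BPTES and 5840 and 5255 CPM under DMSO (log2 -1.08, SE 0.17, adjusted p = 0.013, edgeR). Spp1 stood at 2638 and 2429 CPM under BPTES and 4527 and 4725 CPM under DMSO (log2 -0.87, SE 0.16, adjusted p = 0.043, edgeR). In CPM both were lower in each BPTES library than in each DMSO library, and groups did not overlap for 37.1% of all tested genes. Median UMIs per cell did overlap, at 21.5 and 7 against 18 and 14 for Clu. For Spp1 they were 43 and 5 against 46.5 and 23. The top cell held 43.7% and 18.1% of the Clu UMIs of DMSO replicates 1 and 2, and 38.1% and 20.5% of the Spp1 UMIs. In BPTES replicates 1 and 2 it held 23.5% and 13.5% for Clu and 8.59% and 20.5% for Spp1. Clu was seen in 32 of 42 and 26 of 37 cells under BPTES and in 20 of 24 and 53 of 60 under DMSO. Spp1 was seen in 37 of 42 and 26 of 37 cells under BPTES and in 21 of 24 and 57 of 60 under DMSO. Both missed the threshold without BPTES replicate 2 (Clu -0.96, adjusted p = 0.0612; Spp1 -0.81, 0.197), DMSO replicate 1 (-1.002, 0.125; -0.90, 0.177) or DMSO replicate 2 (-1.15, 0.0855; -0.83, 0.300). In the cells with at least 10 Aqp2 UMIs they stood at -0.98 (adjusted p = 0.136) and -0.94 (0.202). In the cells with fewer than 3 Calb1 UMIs, Clu had the opposite sign (0.26, adjusted p = 0.998).

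Lcn2, Krt8, Krt18, Clu and Spp1 belong to a list of 26 tubular injury and senescence genes, of which 15 were tested and these 5 passed, all lower, where 0.216% of all tested genes were called lower. The list's median log2 fold change was -0.37 against -0.0023 for all genes. The list was chosen with earlier results of these data known, so its count is not independent evidence of its direction. Other members did not pass, and their levels did not all lie lower under BPTES. Gdf15, a stress-induced cytokine, stood at 86.8 and 1013 CPM under BPTES and 58.7 and 298 CPM under DMSO, and Ccnd1 at 214 and 359 against 148 and 167 CPM. Krt7 stood at 378 and 451 against 364 and 510 CPM, with overlapping groups.

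Muc1, Nrp1 and Sema3c fell as well. Muc1, a membrane mucin of the apical surface, stood at 24.5 and 31.9 CPM under BPTES and 153 and 107 CPM under DMSO (log2 -2.19, SE 0.28, adjusted p = 0.0049, edgeR), and was seen in 9 of 42, 11 of 37, 12 of 24 and 35 of 60 cells. Nrp1, a co-receptor for semaphorins and VEGF, stood at 28.6 and 21.7 CPM against 102 and 107 CPM (log2 -2.03, adjusted p = 0.0054, edgeR). The top cell held 40.7% and 12.2% of the Nrp1 UMIs of DMSO replicates 1 and 2. Sema3c, a secreted semaphorin, stood at 9.19 and 15.9 CPM against 60.6 and 67.7 CPM (log2 -2.40, adjusted p = 0.0081, edgeR). For all 3 genes the lowest DMSO library lay at least 3 times above the highest BPTES library. Separate groups were a condition of naming these genes, which 37.1% of all tested genes met. Muc1 reached -1.94 without DMSO replicate 1 (adjusted p = 0.0506), Nrp1 -1.996 without DMSO replicate 2 (0.0871), and Sema3c -2.46 and -2.29 without DMSO replicate 1 (0.0631) and 2 (0.197).

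The adhesion molecule Alcam (log2 -1.81, adjusted p = 0.033, edgeR), the membrane repair protein Myof (-1.49, 0.041), the doublecortin family member Dcdc2a (-2.15, 0.043) and the predicted gene Gm38399 (-1.92, 0.011) were lower too. Groups that did not overlap were a condition of naming these genes, and 37.1% of all tested genes met it. Alcam missed the threshold without DMSO replicate 1 (-1.51, 0.249) or 2 (-2.15, 0.0614), as did Myof (-1.63, 0.109; -1.28, 0.480) and Dcdc2a (-2.31, 0.193; -1.84, 0.581). Dcdc2a passed at -1.56 without BPTES replicate 1 and at -2.86 without BPTES replicate 2. Gm38399 missed the threshold without DMSO replicate 2 (-1.57, 0.295).

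Sytl2, a vesicle trafficking protein, and Fut9, a fucosyltransferase, fell most among genes whose mean log2 CPM reached 5. Sytl2 stood at 10.2 and 1.45 CPM under BPTES and 68.2 and 67.7 CPM under DMSO (log2 -3.36, adjusted p = 0.0076, edgeR). The top cell held 41.7% and 29.5% of the Sytl2 UMIs of DMSO replicates 1 and 2. Fut9 stood at 5.1 and 5.8 CPM under BPTES and 66.3 and 47.7 CPM under DMSO (log2 -3.33, adjusted p = 0.0049, edgeR). These are 5, 4, 35 and 62 Fut9 UMIs, and the top cell held 54.3% of those in DMSO replicate 1 and 62.9% of those in DMSO replicate 2. Sytl2 missed the threshold without DMSO replicate 1 (-3.38, adjusted p = 0.192) or 2 (-3.38, 0.295). It stood at -5.41 without BPTES replicate 1 and at -2.71 without BPTES replicate 2, passing in both. Fut9 missed the threshold without DMSO replicate 1 (-3.11, 0.0506).

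Ltc4s, leukotriene C4 synthase, was counted 4 and 2 times in the BPTES libraries and 32 and 45 times in the DMSO libraries (log2 -3.61, adjusted p = 0.0081, edgeR). A single cell held all 32 and another 91.1% of the 45. It stood at -3.23 without DMSO replicate 1 (adjusted p = 0.0972), and too few counts were left to fit it in the cells with at least 10 Aqp2 UMIs.

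A further 4 called genes fell outside the naming rule and are named after their values were seen. Ly6e, a membrane-anchored protein, stood at 692 and 533 CPM against 1457 and 1302 CPM (log2 -1.17, adjusted p = 0.017, edgeR), and AC149090.1 at 97 and 87 against 178 and 252 CPM (-1.24, 0.033). Tmem158 had 5 and 1 UMIs against 23 and 39 (-3.27, 0.025), with 65.2% and 25.6% of the DMSO UMIs in the top cell of each library. Pigr, the receptor that carries polymeric immunoglobulin across epithelia, had no UMI in 79 BPTES cells and 8 and 46 UMIs under DMSO (adjusted p = 0.018, edgeR). Against a limit of 3 UMIs over the group, its pooled UMI level was at least 16.9-fold lower than in the 2 DMSO libraries pooled. This bound counts UMIs only and leaves out the spread between cells and between libraries. The DMSO UMIs sat in 2 of 24 and 6 of 60 cells. That bound rests mostly on the 46 UMIs of DMSO replicate 2, and 87.5% of the UMIs of DMSO replicate 1 were in 1 cell. Without DMSO replicate 1, adjusted p-values were 0.142 for Ly6e, 0.0506 for AC149090.1 and 0.225 for Tmem158 (log2 -1.09, -1.45 and -3.05). Without DMSO replicate 2 they were 0.0871, 0.444 and 0.240 (-1.24, -0.94 and -3.57), and Pigr had too few counts for a fit. Without BPTES replicate 2, Ly6e stood at -0.99 (0.0693). Without BPTES replicate 1, Tmem158 stood at -4.48 and passed.

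Zbtb16, Gadd45g and Zhx3 rose beside the immunoglobulin genes. Zbtb16, a transcription factor induced by corticosteroids, stood at 55.1 and 62.3 CPM under BPTES and 13.3 and 6.15 CPM under DMSO (log2 2.77, SE 0.40, adjusted p = 0.0081, edgeR). It was seen in 19 of 42 and 14 of 37 cells under BPTES and in 5 of 24 and 6 of 60 under DMSO. Gadd45g, a stress-inducible growth regulator, stood at 166 and 207 CPM against 66.3 and 86.9 CPM (log2 1.25, SE 0.22, adjusted p = 0.033, edgeR). Zhx3, a transcriptional repressor, stood at 162 and 158 CPM against 79.6 and 63.8 CPM (log2 1.19, SE 0.22, adjusted p = 0.036, edgeR). In CPM the groups did not overlap for these 3 genes, as for 37.1% of all tested genes. For Gadd45g and Zhx3 this was a condition of the naming rule by fold. Zbtb16 missed the threshold without DMSO replicate 2 (2.13, 0.242) and in the cells with at least 10 Aqp2 UMIs (2.47, 0.0781). Gadd45g missed it without BPTES replicate 2 (1.09, 0.0531), DMSO replicate 1 (1.10, 0.258) or DMSO replicate 2 (1.49, 0.163), and Zhx3 without DMSO replicate 1 (1.32, 0.112) or 2 (1.01, 0.453).

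Other settings also ended calls named above. A stricter cell rule (at least 10 Aqp2 UMIs, at least 4 UMIs of Aqp3, Hsd11b2, Scnn1b and Scnn1g together and 0 of the genes with an upper limit) left 51 cells, and 8 of the 21 reported genes that could be tested passed. Krt8 stood there at -0.51 (adjusted p = 0.823), Krt18 at -0.67 (0.591), Clu at -0.78 (0.691) and Spp1 at -0.42 (0.843). Zbtb16 stood at 3.11 (0.0503), Gadd45g at 2.15 (0.174) and Zhx3 at 1.21 (0.257). Dcdc2a, Alcam, Myof, Ly6e, Tmem158 and AC149090.1 missed it too. In the cells with at least 10 Aqp2 UMIs, Nrp1 (-2.49, 0.122), Gadd45g (1.34, 0.122) and Zhx3 (0.99, 0.235) missed the threshold, as did Dcdc2a, Alcam, Myof, Ly6e, Pigr, Tmem158 and AC149090.1. With DESeq2, adjusted p-values were 0.0839 for Zbtb16, 0.167 for Gadd45g, 0.378 for Zhx3 and 0.140 for Sema3c, and Dcdc2a, Gm38399, Alcam, Myof, Pigr, Tmem158 and AC149090.1 also missed it. With doublets removed, Spp1 (-0.72, 0.157), Gadd45g (1.15, 0.0817), Zhx3 (1.14, 0.0523), Dcdc2a, Myof and AC149090.1 missed it, and at a 25% mitochondrial limit Gadd45g did (1.21, 0.0502).

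Splitting the cells at 3 Calb1 UMIs, chosen after seeing the data, ended most calls. In the 102 cells with at least 3, 9 of the 22 reported genes tested passed, among them Lcn2 (-2.22, adjusted p = 0.0395), Clu (-1.29, 0.0257), Nrp1 (-2.24, 0.0395) and Gadd45g (1.27, 0.0462). Krt8 (-1.11, 0.249), Krt18 (-1.22, 0.481), Spp1 (-0.95, 0.165), Muc1 (-1.97, 0.165), Sema3c, Zbtb16 (2.15, 0.0942) and Zhx3 did not, and Alcam stood at -0.93 (0.838). In the cells with fewer, Igha alone of the 21 tested passed (5.40, 0.0093). With every cell thinned to 2000 UMIs, 9 of the 24 could be tested and Lcn2 (-3.46, 1.83e-05) and Igkc (2.67, 8.41e-05) passed. Clu stood there at -0.94 (0.0831), Krt8 at -0.98 (0.696), Krt18 at -1.04 (0.664) and Spp1 at -0.66 (0.518). These fits hold fewer cells or fewer UMIs. The Calb1 limit counts raw UMIs, and the cells below it were shallower on average in every library. In BPTES replicate 1, 14 cells below it held 166963 UMIs and the 28 others 831249. In DMSO replicate 2, 28 cells below it held 393179 UMIs and the 32 others 915590. The part of depth in this split was not tested.

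Promoter sequence is shown for Muc1 and Krt18, which were lower, and for Gadd45g, which was higher. They are examples among the 14 called genes with an entry, and each holds a match marked below. The bases printed lie before the RefSeq start site and are free of annotated exons. Each is written 5′ to 3′ on the gene's own strand, the plus strand of GRCm38.p6. Muc1 is at chr3:89228806-89229055, Krt18 at chr15:102027966-102028179, which ends 36 bases before the start site where a GENCODE exon begins, and Gadd45g at chr13:51846425-51846674. Capitals mark a match to TATAAA (Muc1, Gadd45g) or to the NF-kB consensus (Krt18).
Muc1: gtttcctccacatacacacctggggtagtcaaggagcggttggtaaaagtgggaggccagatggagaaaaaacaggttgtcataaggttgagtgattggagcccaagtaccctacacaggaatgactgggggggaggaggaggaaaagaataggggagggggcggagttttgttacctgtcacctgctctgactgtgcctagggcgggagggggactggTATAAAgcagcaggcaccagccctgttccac
Krt18: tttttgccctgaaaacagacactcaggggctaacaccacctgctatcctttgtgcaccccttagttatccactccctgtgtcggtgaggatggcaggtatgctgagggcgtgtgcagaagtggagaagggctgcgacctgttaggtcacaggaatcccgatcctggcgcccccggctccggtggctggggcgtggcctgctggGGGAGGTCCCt
Gadd45g: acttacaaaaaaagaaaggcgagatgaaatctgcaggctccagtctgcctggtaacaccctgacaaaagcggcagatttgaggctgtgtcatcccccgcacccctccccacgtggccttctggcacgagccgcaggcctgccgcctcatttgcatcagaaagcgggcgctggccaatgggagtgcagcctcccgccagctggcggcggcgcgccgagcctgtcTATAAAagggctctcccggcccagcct
The TATAAA match began 31 bases before the start site in Muc1 and 27 bases before it in Gadd45g. In the 250 bases before the start, both strands, TATAAA occurred in 12.97% of 27025 RefSeq promoters and in those of 3 of the 14 called genes with an entry. The NF-kB consensus occurred in 7.01% and in 1 of the 14, GGGCGG (GC box) in 32.9% and in 6, TGANTCA (AP-1) in 6.87% and in none, and TTCNNNGAA (STAT) in 7.18% and in 1. A match describes these letters and not a binding site.

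The immunoglobulin genes had the smallest p-values among the rises. Igha, the heavy chain of IgA, stood at 103 and 162 CPM under BPTES and 3.79 and 3.84 CPM under DMSO (log2 5.05, SE 0.41, adjusted p = 5.1e-05, edgeR). Igkc, the kappa light chain, stood at 267 and 361 CPM against 56.8 and 59.96 CPM (log2 2.41, SE 0.22, adjusted p = 0.00016, edgeR). Jchain, which joins IgA dimers, stood at 22.5 and 24.6 CPM against 7.58 and 1.54 CPM (log2 2.72, adjusted p = 0.16, edgeR). These are plasma cell transcripts. The absence of Ptprc UMIs was a condition of the selection and says nothing further of these cells. Igkc was found in 41 of 42 and 37 of 37 cells under BPTES and in 13 of 24 and 41 of 60 under DMSO. At 2000 UMIs it was in 47.5%, 37.5%, 0% and 14.8% of principal cells and in 45.7%, 55.3%, 16.3% and 12.7% of proximal tubule cells (1000 drawn per library), in the order BPTES replicates 1 and 2, DMSO replicates 1 and 2. CD45-positive barcodes held Igkc at 39003 and 60138 CPM under BPTES and 5043 and 6726 CPM under DMSO. The Igkc log2 fold change was 2.40 in intercalated, 2.64 in distal convoluted tubule, 2.66 in thick ascending limb and 2.51 in proximal tubule cells. Those fits called 0.0663%, 0.233%, 0.353% and 0.079% of their tested genes. In the principal cells with fewer than 3 Calb1 UMIs, Igkc stood at 2.54 (adjusted p = 0.0695). The part of transcripts from other cells in the rise of these genes in principal cells was not tested. Without the immunoglobulin genes 22 genes passed, all of them among the 24.

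Vasopressin signalling genes did not pass the test. Of 20 on the list, 16 were tested and none was called in either direction, where 0.273% of all tested genes were called, so a count of 0 in a list of this size is near that background and is not a result about its members. The same holds for each list below without a call. The list had a median log2 fold change of 0.12 and none at an unadjusted p under 0.05. Avpr2 stood at 194 and 326 CPM under BPTES and 85.3 and 230 CPM under DMSO, with overlapping groups (log2 0.65, SE 0.58). Gnas, the stimulatory G protein, stood at 464 and 530 against 432 and 491 CPM, and Pde4d, which degrades cyclic AMP, at 778 and 957 against 718 and 713 CPM. Aqp4 in principal cells stood at 63.3 and 5.8 CPM against 275 and 288 CPM (log2 -2.91, SE 0.97, adjusted p = 0.73, edgeR). Its log2 fold change was -5.57 without BPTES replicate 1 and -2.15 without BPTES replicate 2. Each of those fits leaves 1 BPTES library, so the spread between the BPTES libraries does not enter it. Among the alternatives that kept all libraries, Aqp4 passed only in cells thinned to 2000 UMIs (-3.17, adjusted p = 3.02e-05, edgeR).

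Aldosterone-responsive and transport genes had 1 call among 21 tested of 22 listed, the rise of Zbtb16, where 0.273% of all genes were called, and a median log2 fold change of 0.17. At an unadjusted p under 0.05, 7 were higher and 2 lower, beside 7.25% of all tested genes in either direction. Fkbp5, another corticosteroid-induced gene, stood at 26.5 and 37.7 CPM under BPTES and 15.2 and 9.99 CPM under DMSO (log2 1.41, adjusted p = 0.32), and Per1 at 23.5 and 30.4 against 7.58 and 13.8 CPM (1.18, 0.50). Nedd4l, the ligase that removes the sodium channel, stood at 884 and 1570 against 745 and 685 CPM (0.78, 0.39). Sgk1, the kinase that restrains Nedd4l, stood at 74.5 and 26.1 against 26.5 and 32.3 CPM, and the mineralocorticoid receptor Nr3c2 at 1197 and 1023 against 1199 and 1109 CPM. The potassium channel Kcnj1 stood at 681 and 590 against 576 and 627 CPM. All adjusted p-values here are edgeR's over all 8790 genes.

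Regulators of principal cell identity and junction genes had no call among 19 tested of 20. Tfcp2l1 stood at 982 and 874 CPM against 881 and 849 CPM, Gata3 at 189 and 213 against 229 and 203 CPM, and the tight junction gene Cldn8 at 445 and 536 against 464 and 458 CPM. Notch1 stood at 7.14 and 10.1 against 20.8 and 36.1 CPM (log2 -1.81, adjusted p = 0.21), Elf5 at 13.3 and 5.8 against 28.4 and 36.1 CPM (-1.71, 0.22), and Epcam at 403 and 358 against 616 and 550 CPM (-0.61, 0.29). Groups did not overlap for 12 of these 19 genes, where 37.1% of all tested genes did not overlap. Connecting tubule markers had no call among 9 tested of 10. S100g stood at 24185 and 26644 CPM against 15495 and 17160 CPM (log2 0.64, adjusted p = 0.15), and Trpv5 at 181 and 116 against 307 and 277 CPM (-0.96, 0.13).

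Prostaglandin, endothelin and purinergic genes had no call among 8 tested of 17. The endothelin receptor Ednrb stood at 70.4 and 43.5 CPM against 32.2 and 19.99 CPM (log2 1.24, SE 0.35, adjusted p = 0.27, edgeR), and the prostaglandin synthase Ptges at 233 and 209 against 246 and 247 CPM. Osmotic response genes had none among 11 tested of 12, with Nfat5, the tonicity-responsive transcription factor, at 415 and 384 against 487 and 420 CPM.

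Glutamine and glutamate genes had no call among 12 tested of 22 (0.273% over all genes), with a median log2 fold change of 0.29. Slc3a2, the heavy chain of amino acid exchangers, stood at 135 and 148 CPM under BPTES and 64.4 and 95.3 CPM under DMSO (log2 0.77, adjusted p = 0.30, edgeR). Its partner Slc7a8 stood at 239 and 126 against 110 and 93.8 CPM (0.87, 0.41), and glutamate dehydrogenase Glud1 at 142 and 174 against 119 and 111 CPM (0.46, 0.67). Amino acid stress genes had none among 12 tested of 20, with a median of -0.06. Atf4, the transcription factor of that response, stood at 43.9 and 91.3 against 64.4 and 63.8 CPM, and its target Sesn2 at 61.2 and 62.3 against 34.1 and 40.7 CPM (0.69, 0.56).

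Respiratory chain subunits had no call among 13 mitochondrially encoded genes (median log2 fold change 0.20, from -0.07 to 0.28) or 24 nuclear ones (0.18, from -0.15 to 0.52). The mitochondrial share of principal cell UMIs was 11.0% and 9.10% under BPTES and 9.46% and 8.71% under DMSO. Immediate early and dissociation genes had none among 20, with Fos at 578 and 1145 CPM under BPTES and 563 and 1401 CPM under DMSO. Replicates within each group thus differed more in Fos than the group means did. Interferon and antigen presentation genes had none among 13 tested of 18. For the lists without a call, a count of 0 is near the 0.273% called over all genes and is not a result about their members. With 2 libraries per group a change in these genes cannot be told from no effect.

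Summed markers of other cell types in principal cells were as follows. The 11 intercalated cell markers summed to 341 to 364 per 1000000 UMIs under BPTES and 203 to 271 under DMSO, most of it Rhbg. The 10 connecting and distal convoluted tubule markers summed to 40507 and 54842 under BPTES and 30073 and 29823 under DMSO, so the groups did not overlap. Most of these UMIs were S100g and Klk1, at 23695 and 10401 of 40435 in BPTES replicate 1 and 22322 and 9169 of 39031 in DMSO replicate 2. Members differed in direction, with Tmem52b at a log2 fold change of 0.78 and Emx1 at 0.68 but Trpm6 at -1.21 and Trpv5 at -0.96, none of them called. The part of this sum in the differences above was not tested. For the 7 thick ascending limb markers the sums were 99.2 and 15.04 with BPTES against 65.9 and 36.7 with DMSO, which overlap. The 12 proximal tubule markers summed to 387 to 429 and 396 to 416, and the 13 leukocyte markers to 45.1 to 46.1 and 58.8 to 62.1, with Ms4a1 at 0 in every library. The 8 endothelial markers summed to 8.01 to 17.8 and 5.65 to 24.5. Fibroblast and mural markers summed to 0 and 1638 per 1000000 under BPTES and 0 and 4.58 under DMSO. One cell of BPTES replicate 2 with 5 Aqp2 UMIs held 1001 Dcn and 109 Col1a2 UMIs, the defining genes of fibroblasts. The 6 inner medullary markers summed to 148 to 172 per 1000000 under BPTES and 381 to 461 under DMSO. Aqp4 supplied 62 of 148 and 4 of 126 of these UMIs under BPTES and 145 of 245 and 375 of 499 under DMSO. Of the 4 members tested, Aqp4 alone had groups that did not overlap, and the part of this sum in the falls above was not tested.

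Whether the BPTES difference in principal cells was its own was tested against 3 neighbouring classes, each selected by its own markers, with library as a block and the class-by-treatment interaction in edgeR. Against intercalated cells, 13 of 9818 genes passed (0.132%). Against 619 distal convoluted tubule cells 8 of 10458 passed (0.0765%), and against 612 thick ascending limb cells none of 10470 (0%), with 463 at an unadjusted p under 0.05. All classes come from the same libraries. When BPTES replicate 1 was left out the counts against the 3 classes, in that order, were 43, 44 and 28, and for BPTES replicate 2 they were 14, 17 and 2. For DMSO replicate 1 they were 134, 220 and 16, and for DMSO replicate 2 they were 41, 29 and 11.

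The BPTES difference of Krt18 and Gadd45g in principal cells differed from that in intercalated cells, where neither gene was called by itself. Krt18 stood at 109 and 127 CPM in BPTES and 71.8 and 79.3 CPM in DMSO intercalated cells, a log2 fold change of 0.62 against -1.26 in principal cells (difference -1.88, SE 0.32, adjusted p = 0.0052). The fall of Krt18 in principal cells rests in part on 1 cell with 3 Aqp2 UMIs that held 71.5% of the Krt18 UMIs of DMSO replicate 1, and it was -0.46 (adjusted p = 0.906) in cells with at least 10 Aqp2 UMIs and -0.67 under the stricter rule. The interaction was not refitted in those cells. Gadd45g stood at 15.9 and 55.6 against 80.2 and 89.6 CPM in intercalated cells, -1.39 against 1.25 in principal cells (difference 2.70, SE 0.40, adjusted p = 0.0023). The top principal cell held 31.3% and 32.9% of the Gadd45g UMIs of the BPTES libraries and 34.3% and 22.1% of those of the DMSO libraries. Sema3c, at 73.3 and 85.8 against 62.3 and 96.9 CPM in intercalated cells, differed by -2.37 (adjusted p = 0.013). Fut9, at 158 and 184 against 201 and 198 CPM there, differed by -3.09 (adjusted p = 0.0021) from intercalated and by -3.89 (0.025) from distal convoluted tubule cells. In principal cells a single cell held 54.3% of the Fut9 UMIs of DMSO replicate 1, and another held 62.9% of those of DMSO replicate 2.

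Some interaction calls came from the other class. Arl15, a small GTPase linked to magnesium handling, stood at 978 and 1174 CPM under BPTES and 1179 and 1067 CPM under DMSO in principal cells. In distal convoluted tubule cells it stood at 82.7 and 84.9 against 363 and 455 CPM (difference 2.24, SE 0.30, adjusted p = 0.018). Sgcd, a sarcoglycan, stood at 44.9 and 47.8 against 43.6 and 55.3 CPM in principal cells and at 12.4 and 16.2 against 68.8 and 117 CPM there (difference 2.65, adjusted p = 0.018). Fosb stood at 90.8 and 121.7 against 109.9 and 70.7 CPM and at 4.5 and 13.3 against 55.3 and 32.0 CPM (2.62, 0.025). The long non-coding RNA AI838599 stood at 296 and 281 against 87.2 and 166 CPM in principal cells and at 26.5 and 23.6 against 41.8 and 87.6 CPM in distal convoluted tubule cells (difference 2.57, SE 0.30, adjusted p = 0.0069). Its rise in principal cells alone did not pass (log2 1.14, adjusted p = 0.16).

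Lcn2 and Spp1 did not pass the interaction test against any of the 3 classes. Lcn2 log2 fold changes were -2.46 (SE 0.38) in thick ascending limb and -2.81 (SE 1.95) in distal convoluted tubule cells, beside -2.82 in principal cells (interaction adjusted p = 1 for both). Only 5 of 190 intercalated cells had an Lcn2 UMI, too few for a fold change of that class. Spp1 stood at -1.38 and -0.93 in those 2 classes and at 0.20 in intercalated cells (interaction adjusted p = 1, 0.986 and 0.366). Proximal tubule cells, for which no interaction was tested, stood at -2.90 (SE 0.32) for Lcn2 and -0.83 for Spp1. Only 26 of 4000 proximal tubule cells drawn had an Lcn2 UMI, so the Lcn2 value there rests on a small share of cells. A p that misses the threshold does not show that the effects were alike.

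**Figure D5:**
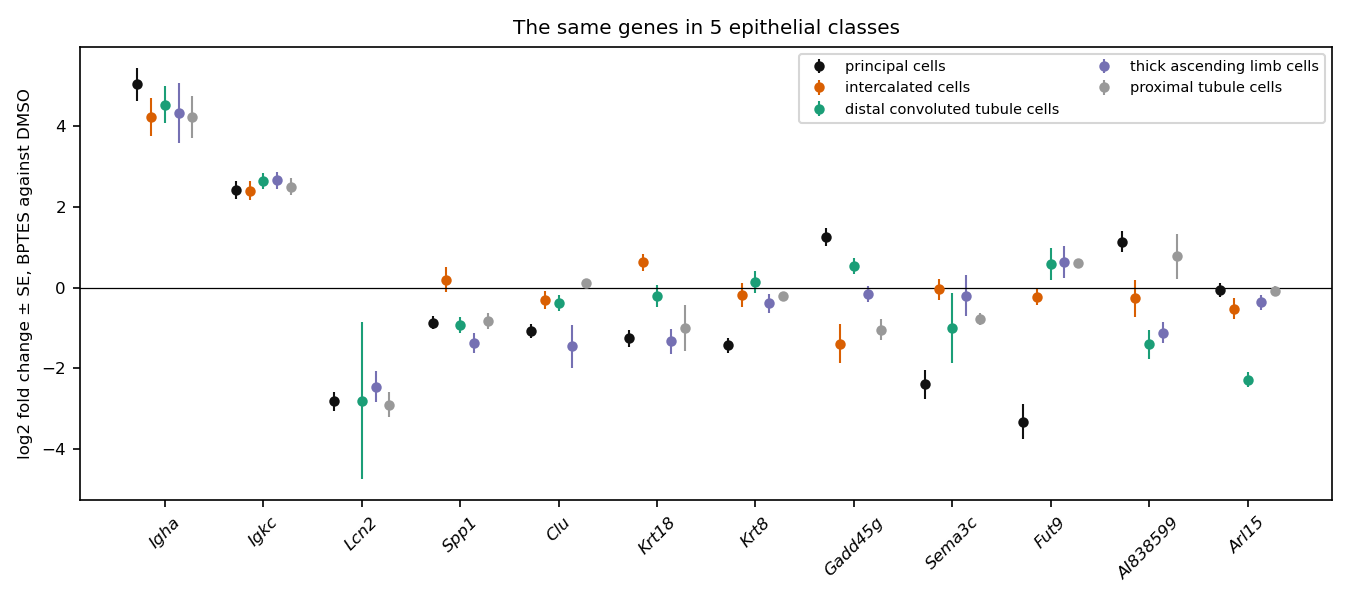
Log2 fold change, BPTES against DMSO, with its standard error (bars), of 12 genes in principal cells (black) and 4 other epithelial classes (colours); a missing point means too few counts for a fit. Igkc lies between 2.40 and 2.66 in all 5 classes, while Krt18, Gadd45g, Sema3c and Fut9 lie apart between principal and intercalated cells. Lcn2 lies between -2.90 and -2.46 in the 4 with a fit. Its bar in distal convoluted tubule cells is wide, and 26 of 4000 drawn proximal tubule cells had an Lcn2 UMI.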

How the data were processed

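The authors deposited raw UMI counts per gene and barcode for 4 libraries, made with Cell Ranger 8.0.1 on mm10, per the submitters' processing notes. The annotation is not given in the sources used here. Symbols shared by several identifiers (35) were kept apart by identifier. Cells, classes and lists were chosen with earlier results of these data known. Doublets were scored with Scrublet in scanpy 1.11.5 at 0.4% per 1000 barcodes and kept. Counts of the selected cells were summed per library and fitted with edgeR 4.0.16 (TMM, filterByExpr, robust quasi-likelihood, Benjamini-Hochberg, threshold 0.05), after a test on simulated data. The simulation gave every gene the same dispersion and held no single cells, so it cannot speak for genes whose counts sat in few cells. Named genes were all list members past the threshold or else the 5 highest by CPM, up to 10 rises and falls by fold at a mean log2 CPM of at least 5 with separate groups, up to 5 genes per interaction, and Igkc and Jchain. Genes named outside this rule are list members given as examples, called genes or genes of marker checks, chosen after their values were seen. Alternatives were DESeq2 1.42.0, RLE scaling, no filter, a replicate block, stricter cell rules, thinning and leaving out each library. Others were added after seeing the data: cells split at 3 Calb1 UMIs, cells with at least 10 Aqp2 UMIs, and no immunoglobulin genes. Promoters are from RefSeq (GRCm38.p6).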

Additional observations from a re-analysis of the deposited data

Results flagged for a closer look

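Of 13 genes whose treatment difference in principal cells differed from that in intercalated cells by the interaction test in edgeR, 7 are given here, on the log2 scale. The others are Serping1, Sprr1a, Grip1, Akap17b, Fam20c and Itgb4. The differences (principal minus intercalated) were -2.16 for Atf3, -1.88 for Krt18, 2.70 for Gadd45g, -3.09 for Fut9, -2.37 for Sema3c, 7.29 for Crybg1 and -3.45 for Ociad2. Crybg1 had no UMI in the 2 BPTES libraries of intercalated cells and 16 and 32 under DMSO, so its fitted value depends on a prior count. Atf3 had 4 UMIs in BPTES replicate 1 and 55.1 CPM in BPTES replicate 2 in principal cells, and Ociad2 stood at 1.45 to 17.1 CPM there. For Fut9, the top principal cell held 54.3% and 62.9% of the UMIs of DMSO replicates 1 and 2.

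Against distal convoluted tubule cells, 7 of 8 such genes (all but Rad51b) had differences of 2.57 for AI838599, 2.24 for Arl15, 2.65 for Sgcd, -3.39 for Ltc4s, 2.62 for Fosb, -3.89 for Fut9 and -7.41 for Pigr. Pigr had no UMI in BPTES principal cells, and a single cell of each DMSO library held 100% and 91.1% of the Ltc4s UMIs. For Fut9 the top cell of each DMSO library held 54.3% and 62.9%.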

How the results depend on the processing

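Against 24 genes called in principal cells, the count was 150 with no low-count filter (67 higher, 83 lower), 14 with the replicate block, 5 with cells thinned to 2000 UMIs, 2 in cells with fewer than 3 Calb1 UMIs and 11 in those with at least 3, 11 in cells with at least 10 Aqp2 UMIs, and 9 to 177 with 1 library left out. Fewer cells or genes enter the thinned and split fits. The other settings gave 20 to 26 genes, not always the same ones: the stricter cell rule gave 23, with 8 of the 21 reported genes it could test, and removing doublets gave 21, with 18 of 24. DESeq2 gave 20, 13 of them among the 24. Same-numbered libraries had deviations that correlated at 0.057 (0.17 over genes with a log2 CPM of at least 5), so they share a number and not a shown source, and the block kept 10 of the 24, losing among others Krt18, Spp1, Zbtb16, Gadd45g, Zhx3 and Sema3c. Over all named genes and settings the only called value to change sign was Clu, 0.26 in cells with fewer than 3 Calb1 UMIs; the cause was not tested. The share difference of -0.0118 percentage points became 0.0424 at a 25% mitochondrial limit and 0.0142 with doublets removed, and ranged from -0.25 to 0.226 with 1 library left out. Interaction counts with no filter were 48 (intercalated), 73 (distal convoluted tubule) and 68 (thick ascending limb), and 14 to 134, 17 to 220 and 2 to 28 with 1 library left out. A lone library left in a group was assumed to vary like the other group. Depth limits genes with few UMIs: 24 cells of DMSO replicate 1 carry that library's values.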
